A study of Homo sapiens with 8 samples.

Results

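Long non-coding RNA (lncRNA) genes were examined in MOLM-13 cells, a human acute myeloid leukemia line, after knockdown (KD) of PTBP1. The 436 genes described here carry the gene type lncRNA in GENCODE version 44 and a total of at least 40 counts over the 8 libraries. Genes named SNHG and the genes GAS5, ZFAS1 and EPB41L4A-AS1, whose introns hold small nucleolar RNAs, were left out. They were left out by symbol, so other hosts of small nucleolar RNAs may remain. GENCODE lists 18797 lncRNA genes under this rule, of which 2891 had at least 1 count, and 9028 genes of all types reached 40 counts. The genes were chosen by their total count over all libraries and not by the difference between the groups. Just inside the limit, with 40 counts each, were 5 genes, among them LINC02245, ENSG00000272106 and ENSG00000268518, and just outside it, with 39 counts each, were 9 genes, among them NINJ2-AS1, RBM33-DT and EDRF1-DT.

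Both groups had been transduced with a lentivirus. Its fluorescent marker, mCherry, does not depend on doxycycline (dox), whereas dox switches on the shRNA and a cell surface tag, ΔLNGFR. The shPTBP1 group had an shRNA against PTBP1, the shSCR group a scrambled shRNA, and both were kept in dox for 9 days. Each group had 4 biological replicates, and each library was read as long cDNA molecules on a nanopore instrument. The study used 1 shRNA per group, so that other effects of that shRNA or of the transduced population cannot be told apart from the loss of PTBP1.

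PTBP1 is an RNA-binding protein that recognises pyrimidine-rich stretches in nuclear and cytoplasmic RNA and often keeps the exons next to them out of the mature RNA. lncRNAs are transcribed by RNA polymerase II and are often capped, spliced and polyadenylated like mRNAs, but encode no long protein. Many stay in the nucleus at or near the site where they were made, others act in the cytoplasm by holding proteins or miRNAs, and some only mark transcription that starts at a shared promoter. Most are present at far lower levels than mRNAs.

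PTBP1 had a mean normalised level of 9.88 ± 3.55 CPM in shPTBP1 and 47.5 ± 7.81 CPM in shSCR (SD, n = 4), a log2 fold change of -2.26 (edgeR adjusted p = 7.18e-05). CPM are counts per 1000000 after TMM normalisation throughout, and a log2 fold change is shPTBP1 over shSCR. The libraries held between 1528449 and 1613342 counts. Of the myeloid markers, CD33 was between 67.4 and 102 CPM, LYZ between 247 and 428 CPM and HOXA9 between 48.2 and 63.5 CPM over the 8 libraries, while MPO did not exceed 16.01 CPM, FLT3 7.37 CPM, MEIS1 3.16 CPM and SPI1 0.633 CPM. The lymphoid markers CD3E and MS4A1 and the erythroid marker HBB were at 0 in every library, and of the markers of other tissues EPCAM did not exceed 0.661 CPM and COL1A1 2.64 CPM.

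The lncRNA genes took a small share of each library. The share was 0.968%, 1.01%, 1.04% and 1.05% of counts in shPTBP1 replicates 1 to 4, and 0.975%, 0.972%, 0.957% and 0.894% in shSCR replicates 1 to 4. The means were 1.02% ± 0.0358 and 0.949% ± 0.0380 (SD, n = 4), a difference of 0.0663 percentage points, and the groups overlapped in replicate 1 of shPTBP1. Without transcripts that were high in a library and at 0 in another library of the same group, described further on, the difference was 0.0414 percentage points. Counts were spread very unevenly: 225 of the 436 genes had under 100 counts, the median total was 96 counts, and 12 genes had over 1000. The 10 genes with the highest mean CPM held 41.7% of the lncRNA counts, and ENSG00000227706 alone held 24.6%. The most counted transcript of each gene had a median length of 1383 bases. It had 1 exon in 98 genes and 2 exons in 126, and 142 genes had counts on a single annotated transcript.

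Of the 436 genes, 270 passed the filter on low counts and were tested with edgeR's quasi-likelihood test, and 166 with totals between 40 and 169 counts did not. The filter asked for about 10 counts in at least 4 libraries. Among the 270, 99 reached it in fewer than 4 libraries of a group. Of all 270, 43 reached it in more shPTBP1 than shSCR libraries and 26 in more shSCR than shPTBP1 libraries, so that the tested genes are not all members and part of them passed through the group in which they were higher.

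After PTBP1 KD, 2 lncRNA genes were lower and 9 higher at an adjusted p under 0.05. This is 4.07% of those tested, beside 5.54% of the 7597 genes of all types. By direction it is 0.741% lower and 3.33% higher, beside 3.19% lower and 2.36% higher among all genes. LINC03021 had the largest change of the 11, downward, and ENSG00000237311 and ENSG00000286656 had the largest changes upward among the called genes that reached the filter in all libraries of both groups. RAB30-DT and SP2-DT had fitted log2 fold changes of 1.54 and 1.18, but reached the filter in 0 and 2 of the shSCR libraries, and LINC03021 reached it in 2 of the shPTBP1 libraries. LINC03021, ENSG00000237311 and ENSG00000286656 were called in all 8 fits that left out a library and under every other alternative that was run. Counted without a fit, the groups of 9 tested genes were apart with shPTBP1 lower (3.33%) and those of 24 with shPTBP1 higher (8.89%), beside 6.37% and 6.32% of all genes tested, and 9 of the 11 called genes were among them.

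**Figure D1:**
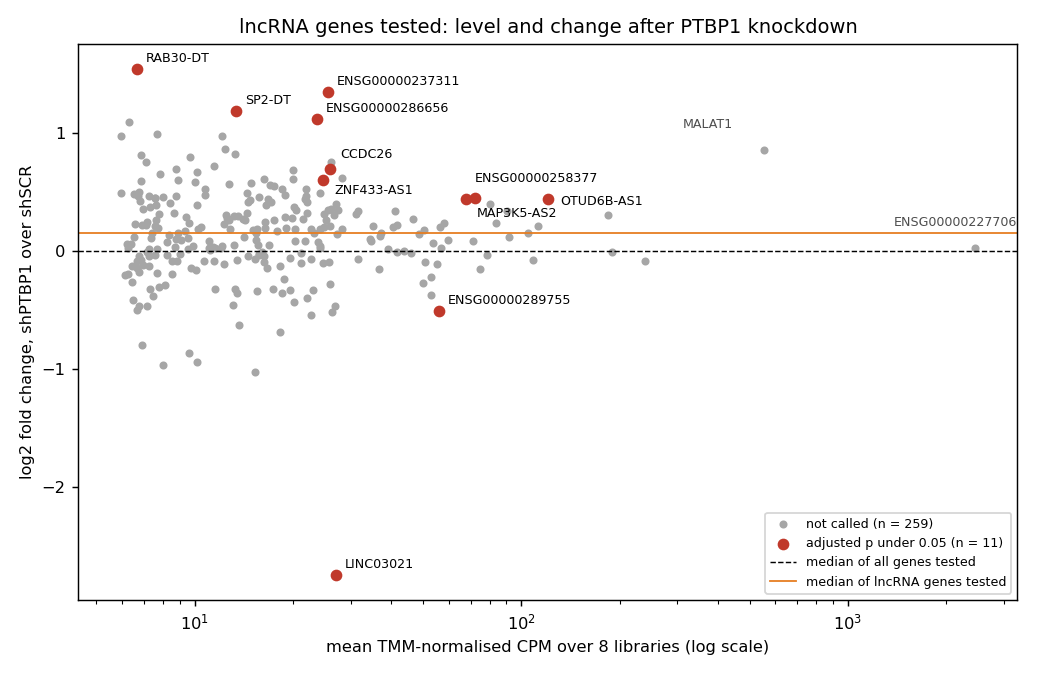
The x axis gives the mean TMM-normalised CPM over the 8 libraries on a log scale, and the y axis the log2 fold change of shPTBP1 over shSCR, for the 270 lncRNA genes tested, with the 11 called genes in red. LINC03021 stands alone at -2.74, the called genes of higher level lie near 0.44, and the most abundant gene, ENSG00000227706, lies at 0.02; the solid line is the median of the lncRNA genes, 0.15, and the dashed line that of all genes tested.

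The median log2 fold change of the 270 tested lncRNA genes was 0.15, with quartiles of -0.08 and 0.36, and 181 of them (67.0%) lay above 0. Over all 7597 genes the median was -0.00014 and 3795 lay above 0, and over the 7252 protein-coding genes the median was -0.0058. At an unadjusted p under 0.05 there were 41 higher (15.2%) and 10 lower (3.70%) lncRNA genes, beside 9.10% and 10.1% of all genes. In the fit without a filter, which held all 436 genes, the median was 0.15 against 0.02 over all genes, and 287 of 436 (65.8%) were above 0, beside 52.7% of all genes. The 20 tested genes left out by symbol as hosts of small nucleolar RNAs had a median of 0.30, with 8 higher and 1 lower at an adjusted p under 0.05. These medians are descriptions, and whether the lncRNA genes differed as a class from other genes was not tested.

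LINC03021, on chromosome 8 between positions 2648075 and 2728577 (GRCh38, minus strand), is an intergenic gene 206776 bp from CSMD1, a gene with 0 counts in every library. Its level was 4.43, 5.29, 9.22 and 8.96 CPM in shPTBP1 replicates 1 to 4, and 54.7, 35.7, 52.7 and 45.6 CPM in shSCR replicates 1 to 4. Every shPTBP1 library was far below every shSCR library. LINC03021 fell by 2.74 on the log2 scale (SE 0.24, edgeR's adjusted p = 2.2e-05), from 47.1 ± 8.6 to 6.97 ± 2.47 CPM (SD, n = 4), with an exact permutation p = 0.0286, the smallest that 4 against 4 allows. It reached the filter in all 4 shSCR libraries and in 2 shPTBP1 libraries.

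The counts of LINC03021 were low in shPTBP1 on each of its main transcripts. LINC03021-205, a transcript of 3 exons and 656 bases, had 2, 4, 5 and 6 counts in shPTBP1 and 32, 32, 32 and 35 in shSCR. LINC03021-216, of 4 exons, had 5, 2, 6 and 7 counts in shPTBP1 and 38, 15, 24 and 17 in shSCR. LINC03021-204 had 2 counts in all of shPTBP1 and 31 in shSCR. LINC03021-213 had 0 counts in every shPTBP1 library and 7, 0, 11 and 12 in shSCR, so it was also at 0 in an shSCR library.

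The other lower gene was ENSG00000289755, on chromosome 16 between 28605587 and 28623625 (minus strand). Its level was 46.2, 54.2, 44.1 and 39.7 CPM in shPTBP1 and 71.3, 54.1, 67.4 and 69.9 CPM in shSCR, and shPTBP1 replicate 2 lay within the shSCR range. ENSG00000289755 fell by 0.51 on the log2 scale (SE 0.13, edgeR's adjusted p = 0.0328). Its main transcript has 10 exons, and 73.7% of its bases lie in exons of a protein-coding gene on the same strand. It overlaps the sulfotransferase gene SULT1A1, which had a mean of 3.73 CPM in shPTBP1 and 4.35 CPM in shSCR, and annotated pseudogenes, so its counts are uncertain. The call was lost in 6 of 8 fits that left out a library (all but shPTBP1 replicate 2 and shSCR replicate 2), with adjusted p up to 0.101, and with DESeq2 (adjusted p = 0.0681).

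**Figure D2:**
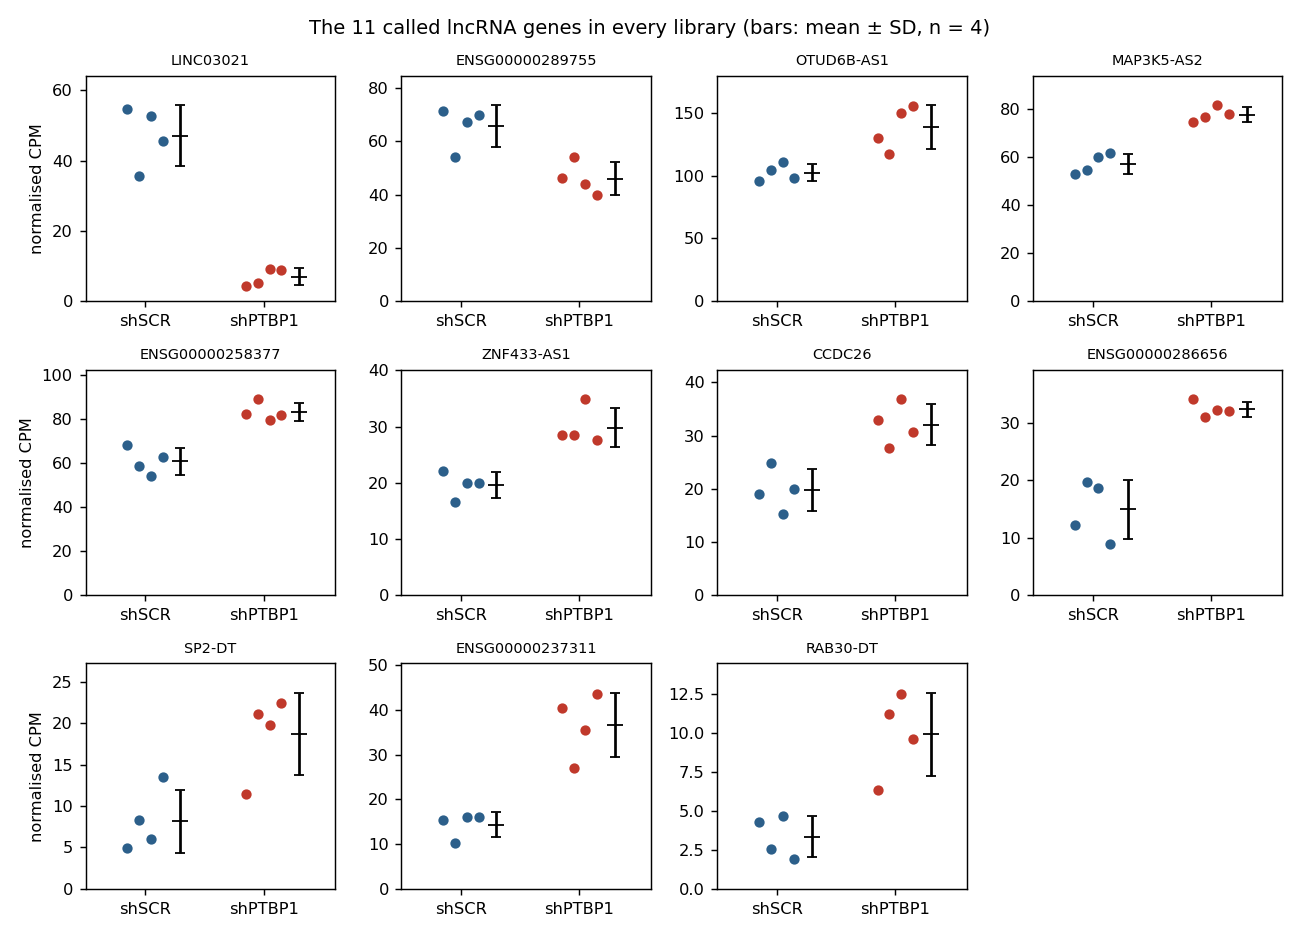
Each panel gives the normalised CPM (y axis, from 0) of a called lncRNA gene in the 4 shSCR and 4 shPTBP1 libraries as points, with the mean ± SD beside them. LINC03021 and ENSG00000289755 are lower in shPTBP1 and the other 9 genes higher, and the groups overlap in ENSG00000289755 and SP2-DT.

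Divergent lncRNAs start next to the start of a coding gene and run away from it, and 2 of the 38 tested genes of this kind were called, both higher. This is 5.26%, near the 5.54% called over all genes tested. SP2-DT starts 306 bp from SP2, a gene for a transcription factor of the Sp family. Its level was 11.4, 21.1, 19.7 and 22.4 CPM in shPTBP1 and 4.92, 8.28, 6.0 and 13.5 CPM in shSCR, so that shPTBP1 replicate 1 lay within the shSCR range. SP2-DT rose by 1.18 on the log2 scale (SE 0.31, edgeR's adjusted p = 0.0430). SP2 itself had a mean of 16.5 CPM in shPTBP1 and 15.7 CPM in shSCR, which is a change of 0.08 on the log2 scale (SE 0.23, edgeR's adjusted p = 0.904). SP2-DT lost its call without any single library other than shPTBP1 replicate 1 and shSCR replicate 4 (adjusted p up to 0.131), and with limma-voom (adjusted p = 0.0555). DESeq2 gave SP2-DT no adjusted p.

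RAB30-DT starts 129 bp from RAB30, a small GTPase of the Golgi. Its counts were low in all libraries, with 10, 17, 19 and 15 counts in shPTBP1 and 7, 4, 7 and 3 in shSCR. This gives 6.33, 11.2, 12.5 and 9.60 CPM against 4.30, 2.55, 4.67 and 1.92 CPM, with no overlap between the groups. RAB30-DT rose by 1.54 on the log2 scale (SE 0.37, edgeR's adjusted p = 0.0295), and it passed the filter through shPTBP1 alone. RAB30 was hardly counted, with a mean of 0.800 CPM in shPTBP1 and 0.960 CPM in shSCR. Leaving out shPTBP1 replicate 2, 3 or 4 or shSCR replicate 2 or 4 ended the call of RAB30-DT (adjusted p up to 0.103), and DESeq2 gave it no adjusted p.

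The sequences around the starts of 3 of the called genes are printed because SP2-DT and RAB30-DT share their promoter region with a coding gene whose level was measured beside them, and ENSG00000286656 kept its call throughout. Capitals mark the bases from the annotated start onward. SP2-DT is at chr17:47895767-47896066 (minus strand) and RAB30-DT at chr11:83071924-83072115 (plus strand, without bases that fall in exons of RAB30), both from RefSeq with GRCh38, and ENSG00000286656 at chr5:42994884-42995183 (plus strand), from GENCODE and GRCh38.
SP2-DT: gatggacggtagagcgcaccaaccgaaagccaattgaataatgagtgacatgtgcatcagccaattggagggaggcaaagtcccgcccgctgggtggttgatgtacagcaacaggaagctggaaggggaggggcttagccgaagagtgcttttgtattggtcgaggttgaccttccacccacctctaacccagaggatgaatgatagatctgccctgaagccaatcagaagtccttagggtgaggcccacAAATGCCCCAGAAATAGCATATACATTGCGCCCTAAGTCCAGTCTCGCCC
RAB30-DT: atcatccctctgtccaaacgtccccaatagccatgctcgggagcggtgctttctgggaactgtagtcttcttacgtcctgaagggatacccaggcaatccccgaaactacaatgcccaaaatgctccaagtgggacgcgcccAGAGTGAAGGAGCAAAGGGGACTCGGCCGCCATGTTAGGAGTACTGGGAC
ENSG00000286656: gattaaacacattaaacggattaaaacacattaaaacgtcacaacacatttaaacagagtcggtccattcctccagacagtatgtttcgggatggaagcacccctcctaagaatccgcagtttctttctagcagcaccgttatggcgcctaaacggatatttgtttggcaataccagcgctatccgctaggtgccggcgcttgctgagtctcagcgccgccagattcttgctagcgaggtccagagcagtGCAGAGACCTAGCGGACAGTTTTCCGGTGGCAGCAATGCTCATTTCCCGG
The core letters of the RUNX motif, TGTGGT, and their reverse complement, ACCACA, were searched in windows of 300 bases (250 before and 50 after the start), because the study examined PTBP1 together with RUNX1. They were found in 13.1% of 35116 RefSeq promoters and in 0 of the windows of the 8 called genes searched. This says only that these letters are not in these windows. The called genes LINC03021, which had the largest change, OTUD6B-AS1 and CCDC26 were not searched, so the result does not cover them.

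Among intergenic genes, 86 were tested, 1 was lower (1.16%) and 3 were higher (3.49%), beside 3.19% and 2.36% of all genes tested. ENSG00000237311 lies on chromosome X between 65925836 and 66001436 (plus strand). Its level was 40.5, 27.1, 35.5 and 43.5 CPM in shPTBP1 and 15.4, 10.2, 16.0 and 16.0 CPM in shSCR, and the groups did not overlap. ENSG00000237311 rose by 1.35 on the log2 scale (SE 0.20, edgeR's adjusted p = 0.00194), from 14.4 ± 2.82 to 36.7 ± 7.18 CPM (SD, n = 4). Its main transcript, with 2 exons, held 91.2% of its counts. VSIG4, the nearest coding gene at 20302 bp, was at 0 CPM in shPTBP1 and 0.333 CPM in shSCR.

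The next of the 436 lncRNA genes along the same strand, 13977 bp further, is MIR223HG, the host of miR-223, a miRNA of the granulocyte lineage. MIR223HG had 10.8, 12.6, 20.4 and 20.5 CPM in shPTBP1 and 4.92, 12.1, 5.33 and 10.3 CPM in shSCR. The groups overlapped, and its log2 fold change of 0.97 (SE 0.33) had an edgeR adjusted p = 0.111.

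ENSG00000286656 lies on chromosome 5 between 42995134 and 43000913 (plus strand). Its level was 34.2, 31.1, 32.3 and 32 CPM in shPTBP1 and 12.3, 19.7, 18.7 and 8.98 CPM in shSCR. The shPTBP1 libraries lay close together, and all were above the shSCR libraries. ENSG00000286656 rose by 1.12 on the log2 scale (SE 0.21, edgeR's adjusted p = 0.0101). Its main transcript had 181 counts in shPTBP1 and 93 in shSCR. A shorter one, ENST00000702105, had 5, 4, 4 and 6 counts in shPTBP1 and 0 in every shSCR library. The shSCR total of 0 over 4 libraries was taken to allow up to 3 counts. Its shPTBP1 total of 19 counts was 6.33-fold above that limit, which leaves out the counting error of the 19 itself.

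Around ENSG00000286656 lie 3 others of the 436 lncRNA genes within 50000 bp, and none was called in the fit with the filter. ENSG00000287263, on the other strand and 1793 bp away, had a log2 fold change of 0.31 (edgeR adjusted p = 0.287). ANXA2R-AS1 and ANXA2R-OT1 had log2 fold changes of 0.75 (edgeR adjusted p = 0.0684) and 0.45 (adjusted p = 0.424). ANXA2R-AS1 was called without a filter (adjusted p = 0.0235), without on-off transcripts (adjusted p = 0.0250), and when shPTBP1 replicate 2 or shSCR replicate 1 was left out. The coding gene nearest to ENSG00000286656, ANXA2R at 38320 bp, encodes a membrane protein named for binding annexin A2 and had a log2 fold change of 0.23 (adjusted p = 0.167).

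CCDC26, on chromosome 8 between 128634199 and 129683770 (minus strand), is a lncRNA gene downstream of MYC, known from copy number gains in acute myeloid leukemia. Its level was 32.9, 27.7, 36.9 and 30.7 CPM in shPTBP1 and 19, 24.8, 15.3 and 19.9 CPM in shSCR. The groups were apart by a small margin. CCDC26 rose by 0.69 on the log2 scale (SE 0.18, edgeR's adjusted p = 0.0362), and its 3 most counted transcripts had 73 and 55, 58 and 26, and 28 and 22 counts in shPTBP1 and shSCR. The call was lost without any single library other than shSCR replicate 2 (adjusted p up to 0.120) and with DESeq2 (adjusted p = 0.0764). MYC had a log2 fold change of 0.0072 (adjusted p = 0.972), and PVT1, the lncRNA gene next to MYC, one of 0.09 (SE 0.33, adjusted p = 0.921).

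Of the 93 tested genes with exons antisense to exons of a coding gene, 2 were higher (2.15%, beside 2.36% of all genes tested) and none lower. Their reads and those of the coding gene can be told apart only if the counting used strand or splice sites, and the sources used here do not say that it did. OTUD6B-AS1 had 130, 118, 150 and 156 CPM in shPTBP1 and 95.9, 104, 111 and 98.2 CPM in shSCR, with no overlap. OTUD6B-AS1 rose by 0.44 on the log2 scale (SE 0.10, edgeR's adjusted p = 0.0218). None of the bases of its main transcript lies in exons of a coding gene, and OTUD6B, a deubiquitinase gene, had a log2 fold change of -0.0064 (SE 0.17, adjusted p = 0.990). Without shPTBP1 replicate 3 or 4 or shSCR replicate 1 or 4 the adjusted p of OTUD6B-AS1 was 0.0804, 0.0769, 0.0565 and 0.0670.

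ENSG00000258377, on chromosome 14 between 49620815 and 49623480, had 82.2, 89.2, 79.7 and 82.0 CPM in shPTBP1 and 68.2, 58.6, 54.0 and 62.9 CPM in shSCR. Every shPTBP1 library was above every shSCR library. ENSG00000258377 rose by 0.45 on the log2 scale (SE 0.10, edgeR's adjusted p = 0.0193). Its main transcript lies wholly (100% of its bases) antisense to exons of MGAT2, a Golgi enzyme of N-glycan synthesis, so these counts and those of MGAT2 may not be separate. MGAT2 had a log2 fold change of 0.18 (SE 0.22, adjusted p = 0.719). Without shPTBP1 replicate 2 or shSCR replicate 3 the call was lost (adjusted p up to 0.0660).

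MAP3K5-AS2 lies inside MAP3K5, the gene of the stress-activated kinase ASK1, on chromosome 6 between 136784045 and 136786402 (plus strand). Its level was 74.7, 76.6, 81.6 and 78.1 CPM in shPTBP1 and 52.8, 54.8, 60.02 and 61.6 CPM in shSCR, with no overlap. MAP3K5-AS2 rose by 0.44 on the log2 scale (SE 0.09, edgeR's adjusted p = 0.0170), and only leaving out shPTBP1 replicate 3 ended the call (adjusted p = 0.0591). MAP3K5 had 0 counts in every library. ZNF433-AS1, on chromosome 19 among zinc finger genes, had 28.5, 28.4, 34.9 and 27.5 CPM in shPTBP1 and 22.1, 16.6, 20.01 and 19.9 CPM in shSCR. ZNF433-AS1 rose by 0.60 on the log2 scale (SE 0.16, edgeR's adjusted p = 0.0483), but the call was lost in all 8 fits that left out a library (adjusted p between 0.0569 and 0.150). It was also lost with DESeq2 (adjusted p = 0.146) and in the edgeR fit without a filter (adjusted p = 0.0659). Of its main transcript, 32.5% lies in exons of the coding gene model ENSG00000286098, which had 0 counts.

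**Figure D3:**
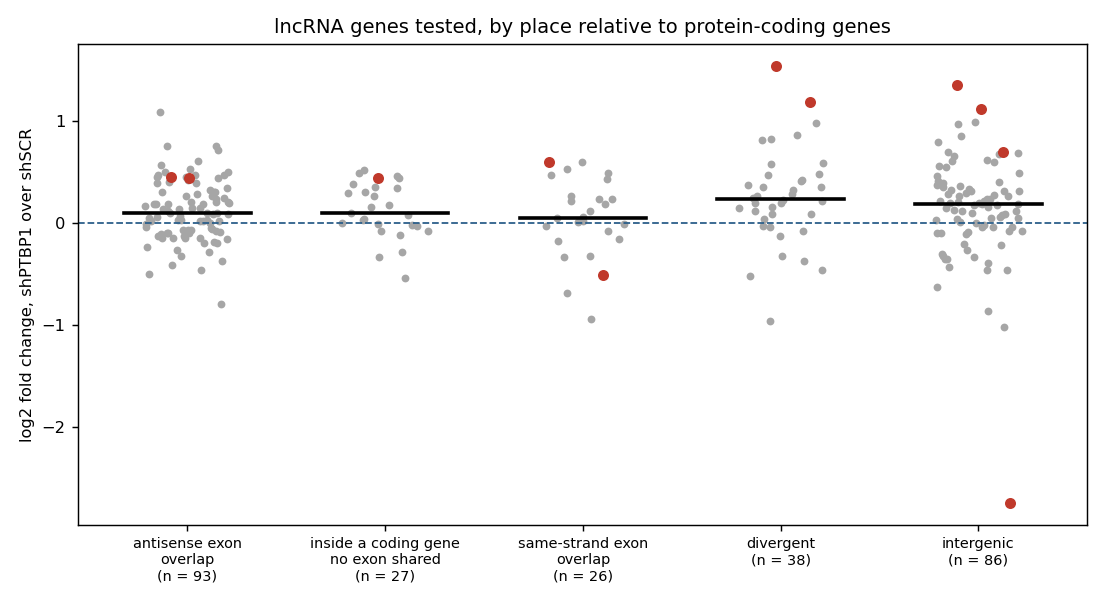
Each point is a tested lncRNA gene, placed by its relation to protein-coding genes (x axis) and its log2 fold change of shPTBP1 over shSCR (y axis); called genes are red, black bars are class medians and the dashed line is the median of all genes tested. The class medians run from 0.05 for same-strand overlap to 0.23 for divergent genes, and called genes occur in every class.

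By their place, 170 of the 436 genes had exons antisense to exons of a coding gene, 132 were intergenic, 60 were divergent (starts within 1000 bp), 38 lay inside a coding gene without sharing an exon and 36 shared exon bases on the same strand. The median log2 fold changes of the tested genes were 0.10, 0.18, 0.23, 0.09 and 0.05 in that order, beside -0.00014 over all genes. Of the divergent genes tested, 29 of 38 lay above 0. Pseudogenes on the same strand overlapped 86 genes, 64 of them tested, with a median of 0.10. Of these 64, 1 was lower (1.56%) and 1 higher (1.56%), beside 3.19% and 2.36% of all genes tested. Reads of these genes could belong to near-identical copies.

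The levels of the lncRNA genes and of their coding partners could be set side by side for 129 tested pairs. The signs of the log2 fold changes were the same in 71 pairs, and Pearson's r across pairs was 0.12 (Spearman's rho 0.07), a description across genes, which share libraries and in part sequence. For 26 divergent pairs r was 0.06 and for 54 antisense pairs 0.09. The partner was called in 2 of the 129 pairs, beside 5.53% of all protein-coding genes tested. None of the called lncRNA genes had a called partner, but many of these partners were hardly counted. CSMD1, MAP3K5 and ENSG00000286098 had no counts and could not be called. VSIG4, RAB30 and SULT1A1 had group means under 6.34 CPM, the level that the filter asked for. Whether the called genes change together with their partners was not tested.

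The lists of lncRNAs used from here on were matched by symbol. Other names of the same gene were not looked up, so a listed symbol without a match need not mean an absent gene. Of the 15 symbols listed as nuclear-retained or chromatin-associated lncRNAs, 5 were members, 4 were tested, and none was called. NEAT1, the RNA that builds paraspeckles, nuclear bodies that also hold RNA-binding proteins, had 27.2, 26.4, 46.1 and 37.8 CPM in shPTBP1 and 28.9, 17.8, 23.3 and 19.2 CPM in shSCR. Its log2 fold change was 0.62 (SE 0.21, edgeR's adjusted p = 0.121), and shSCR replicate 1 lay within the shPTBP1 range. JPX, an activator of X inactivation, had a log2 fold change of 0.32 (adjusted p = 0.474) and KCNQ1OT1, the antisense RNA of an imprinted cluster, one of -0.41 (adjusted p = 0.685). The median of the 4 was 0.47. XACT was not tested: it had 79 counts in shPTBP1 replicate 2 and between 0 and 4 in every other library, and 77 of the 79 were on XACT-203. The fit without a filter called XACT (log2 fold change 3.17, adjusted p = 0.0248), without leaving out that library.

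MALAT1, a nuclear RNA of splicing speckles and the only member among 6 listed RNAs described elsewhere as partners of PTB proteins, was the second most counted lncRNA gene. Its level was 207, 800, 903 and 943 CPM in shPTBP1 and 155, 776, 559 and 89.2 CPM in shSCR. Each group held libraries of low and of high level, and the log2 fold change of 0.85 (SE 0.54) had an edgeR adjusted p = 0.426. Transcript MALAT1-247 made up 69.0% of all MALAT1 counts, with 0, 875, 1092 and 1083 counts in shPTBP1 and 0, 925, 740 and 0 in shSCR. No library had an intermediate count.

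**Figure D4:**
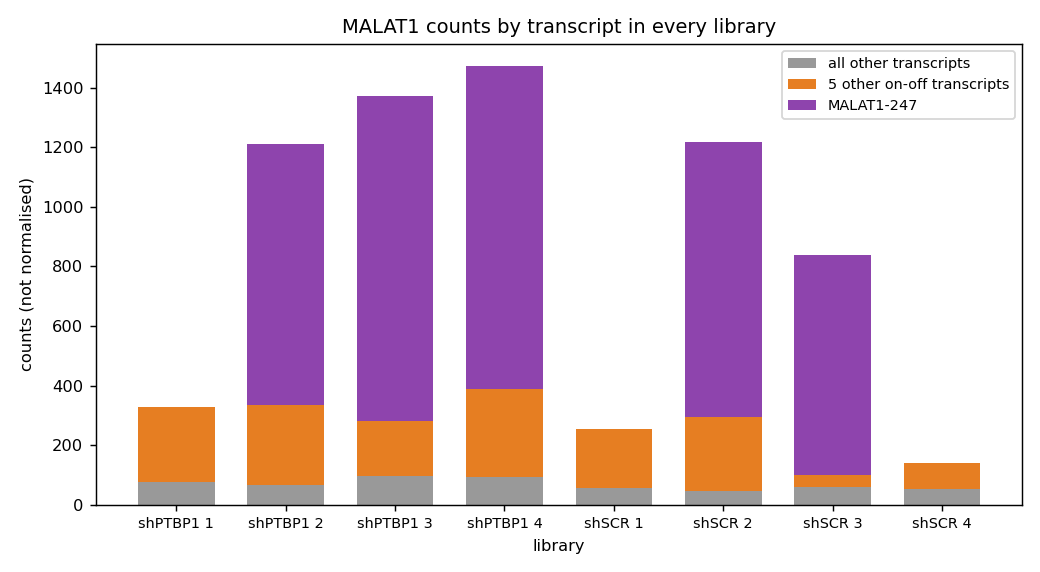
Stacked bars give the MALAT1 counts, not normalised, in each library (x axis), split into MALAT1-247, the 5 other transcripts that had at least 20 counts in a library and 0 in another of the same group, and all other transcripts. MALAT1-247 is at 0 in shPTBP1 1, shSCR 1 and shSCR 4, and the remaining transcripts sum to 76, 67, 95 and 92 counts in shPTBP1 and 55, 45, 60 and 54 in shSCR.

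Transcripts of this on-off kind, with at least 20 counts in a library and 0 in another library of the same group, numbered 17 in 12 lncRNA genes. This was 8.33% of the 204 lncRNA transcripts that reached 20 counts in a library, beside 4.06% (361 of 8891) of all transcripts. EBLN3P-219 had 24, 30, 31 and 0 counts in shPTBP1 and 30, 0, 21 and 0 in shSCR. OIP5-AS1-221 had 38, 31, 28 and 0 in shPTBP1 and 46, 0, 33 and 46 in shSCR, and LINC02008-206 had 74 and 51 counts in shSCR replicates 1 and 4 and 0 in all others. The fit without a filter called LINC02008 lower (-2.46 on the log2 scale, adjusted p = 0.00212), with these transcripts included. The source of these zeros was not tested.

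When all on-off transcripts were left out, an alternative chosen after seeing the data, 2 lncRNA genes were lower and 17 higher, beside 4.30% lower and 3.22% higher over all genes, and all 11 genes named above were still called. MALAT1 then had a log2 fold change of 0.64 (SE 0.14, edgeR's adjusted p = 0.00739). This rests on the small part of its counts that remained, 76, 67, 95 and 92 in shPTBP1 and 55, 45, 60 and 54 in shSCR. All its transcripts together had 327, 1211, 1372 and 1473 counts in shPTBP1 and 253, 1219, 838 and 139 in shSCR. The other genes called in addition were ANXA2R-AS1, RNASEH1-DT, ENSG00000260000, LINC00960, DANCR, OIP5-AS1 and GIHCG, with log2 fold changes between 0.30 and 0.86.

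Of the 14 symbols listed for lncRNAs known from the cytoplasm or as decoys of proteins or miRNAs, 7 were members, 6 were tested and none was called. The median was 0.31, with all 6 above 0. DANCR, named for its role in undifferentiated cells, had 86.7, 85.9, 90.8 and 102 CPM in shPTBP1 and 59.6, 57.9, 82.7 and 78.3 CPM in shSCR. The groups did not overlap, but the log2 fold change of 0.39 (SE 0.12) had an edgeR adjusted p = 0.0867. NORAD, which binds PUMILIO proteins, had a log2 fold change of 0.41 (adjusted p = 0.350), OIP5-AS1 one of 0.24 (adjusted p = 0.333), EBLN3P one of 0.55 (SE 0.49, adjusted p = 0.604), CYTOR 0.19 (adjusted p = 0.745) and LINC00467 0.17 (adjusted p = 0.583).

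**Figure D5:**
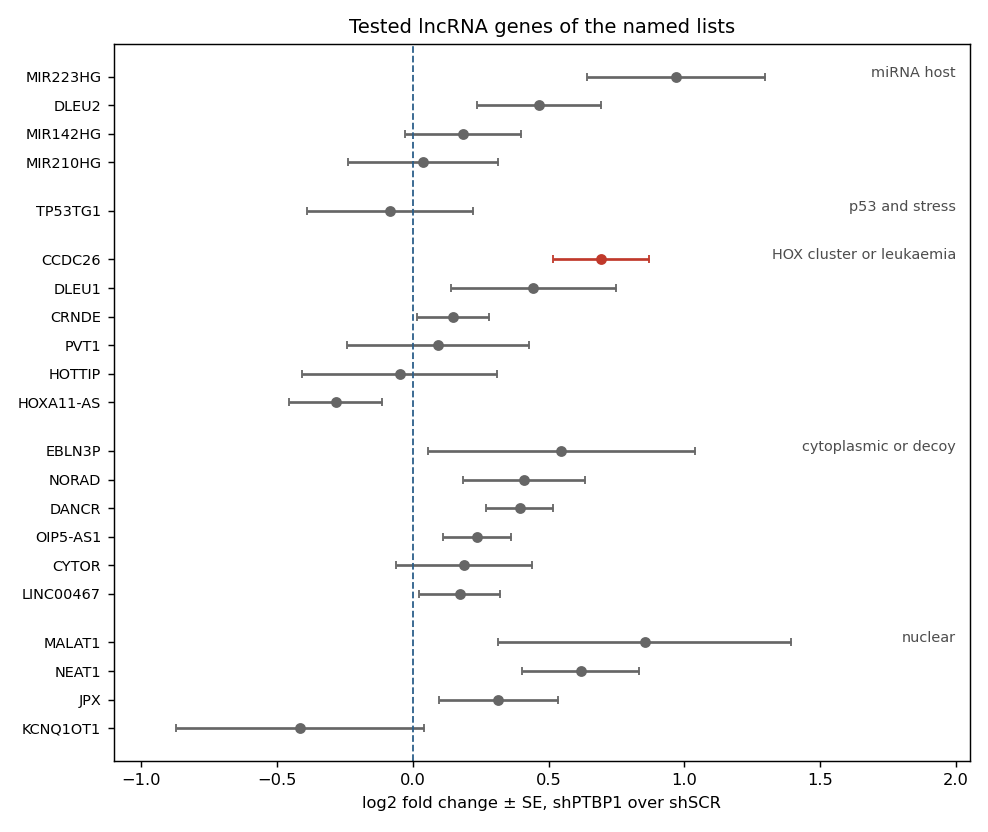
Points give the log2 fold change of shPTBP1 over shSCR with its SE (x axis) for the tested members of the lists (y axis), and the dashed line is the median of all genes tested. CCDC26, in red, is the one called gene; MIR223HG at 0.97 and MALAT1 at 0.85 lie further from 0 with wider errors.

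Of 28 symbols listed for lncRNAs of the HOX clusters or named in myeloid leukemia, 7 were members and all were tested. CCDC26 was the one called, and the median was 0.15. In the HOXA cluster, whose coding genes are part of the program of KMT2A-rearranged leukemia, HOXA11-AS had 19, 26.4, 24.4 and 23.7 CPM in shPTBP1 and 33.8, 22.9, 28.0 and 28.9 CPM in shSCR. Its log2 fold change was -0.28 (SE 0.17, edgeR's adjusted p = 0.402), and that of HOTTIP -0.05 (SE 0.36, adjusted p = 0.966). DLEU1, DLEU2 and CRNDE had log2 fold changes of 0.44 (adjusted p = 0.469), 0.47 (adjusted p = 0.286) and 0.15 (adjusted p = 0.601).

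Among hosts of miRNAs, 6 genes were members and 4 were tested, with a median of 0.33 and none called. Besides MIR223HG and DLEU2, the host of miR-15a and miR-16-1, these were MIR142HG, whose miRNA is found across blood cells, at 0.19 (SE 0.21, edgeR's adjusted p = 0.700), and MIR210HG, whose miRNA responds to low oxygen, at 0.04 (SE 0.28, adjusted p = 0.965). MIR23AHG, not tested, had 71 counts and a mean of 7.12 ± 2.03 CPM in shPTBP1 and 4.33 ± 1.06 CPM in shSCR. Of 16 symbols listed for the p53 response or stress, some of them names of the same gene, 4 were members, all tested and none called. They were NEAT1, NORAD, LINC00467 and TP53TG1, the last at -0.08 (SE 0.31, edgeR's adjusted p = 0.922).

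By symbol, 181 of the 436 genes were named as antisense, divergent, intronic or overlapping transcripts. Of these 105 were tested, with a median of 0.11, 5 higher and none lower, which is 4.76% called beside 5.54% of all genes tested. There were 46 LINC genes, of which 26 were tested, with a median of 0.15, 1 lower (LINC03021) and none higher, which is 3.85% called. Genes with an Ensembl identifier in place of a symbol numbered 141.

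Of the 10 genes with the highest mean CPM, OTUD6B-AS1 was the one called. ENSG00000227706, an intergenic gene on chromosome 6 between 67878316 and 67889339, had 2485, 2388, 2442 and 2560.3 CPM in shPTBP1 and 2617, 2209, 2489 and 2393 CPM in shSCR, which overlapped throughout, and a log2 fold change of 0.02 (SE 0.06, edgeR's adjusted p = 0.869). Per kilobase of its main transcript it was at 1525 CPM and MALAT1 at 412 CPM. These values depend on the transcript taken as main. For MALAT1 it was MALAT1-247, of 1344 bases and at 0 counts in some libraries, whereas MALAT1-202 has 10434 bases. Long cDNA molecules were read, so the division by length is a description and not a measure of level. GIHCG had 173, 203, 215 and 226 CPM in shPTBP1 and 154, 169, 165 and 173 CPM in shSCR, with overlapping groups and a log2 fold change of 0.31 (SE 0.09, adjusted p = 0.0602). The other 6, ENSG00000266976, NAPSB, SBDSP1, ENSG00000234147, LINC00662 and PSMB8-AS1, had log2 fold changes between -0.08 and 0.21 with adjusted p of at least 0.250; NAPSB and SBDSP1 share sequence with a pseudogene annotation.

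Groups that did not overlap were counted over all 436 genes, tested or not: 16 were lower and 30 higher in shPTBP1, which is 3.67% and 6.88%, beside 5.89% lower and 5.60% higher among the 9028 genes of at least 40 counts. Of the 166 genes not tested, 7 were lower and 6 higher. ENSG00000260257, on chromosome 20, had 4.43, 3.96, 2.63 and 3.84 CPM in shPTBP1 and 14.1, 10.8, 17.3 and 5.13 CPM in shSCR. RTCA-AS1, divergent from the RNA cyclase gene RTCA, had 10.1, 5.29, 14.5 and 8.32 CPM in shPTBP1 and 3.69, 3.18, 4.00 and 3.21 CPM in shSCR. Both were called in the edgeR fit without a filter, at adjusted p = 0.00936 and 0.0374. Both were picked for groups that do not overlap, with their values in view.

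The use of isoforms could be tested for 97 transcripts of 37 lncRNA genes. With diffSpliceDGE of edgeR, none had an adjusted p under 0.05 with a change of at least 10 percentage points, beside 1.10% of the 5464 transcripts of all genes, and with limma's diffSplice none either. At an unadjusted p under 0.05 there were 3 transcripts. The first and second belong to ENSG00000227706 and are rare: ENST00000658272 made up 0.564% ± 0.0391 of its counts in shPTBP1 and 0.187% ± 0.0734 in shSCR (SD, n = 4, edgeR adjusted p = 0.0756), and ENST00000652869 made up 2.25% ± 0.188 and 3.35% ± 0.268 (adjusted p = 0.284).

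The third was DPH5-DT-208, a transcript of 2 exons of the lncRNA gene divergent from DPH5. It made up 17.6%, 14.3%, 14.3% and 24% of the DPH5-DT counts in shPTBP1 and 31.6%, 32.6%, 41.2% and 34.3% in shSCR. The groups did not overlap, but the change of -17.3 percentage points had an edgeR adjusted p = 0.367, and it rests on between 5 and 14 counts a library. Over all 97 transcripts 14 had a change of 10 percentage points or more, and with these counts such changes did not pass the test.

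The letters that PTBP1 is known to prefer were counted in the main transcript of each gene. The hexamers TTCTCT and CTCTCT, counted on the transcript strand with overlaps allowed, had a median density of 0.619 per kilobase over the 436 genes, and 166 genes had none. LINC03021 had 1, or 1.52 per kilobase, a density reached by 22.9% of the genes. The count for the other lower gene, ENSG00000289755, is not reported here. Of the 9 higher genes, OTUD6B-AS1, MAP3K5-AS2, CCDC26, SP2-DT and RAB30-DT had none, ENSG00000286656 and ENSG00000258377 had 2 each, and ENSG00000237311 and ZNF433-AS1 had 1 each. Such counts are a description and do not say whether PTBP1 binds.

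To show what pyrimidine-rich stretches these RNAs hold, the window of 120 bases with the most C and T in the main transcript is printed for the called genes MAP3K5-AS2 (chr6:136785648-136785767, plus strand), RAB30-DT (chr11:83073324-83073443, plus strand) and ENSG00000237311 (chrX:66001182-66001301, plus strand), from GENCODE and GRCh38. Capitals mark runs of at least 6 C or T.
MAP3K5-AS2: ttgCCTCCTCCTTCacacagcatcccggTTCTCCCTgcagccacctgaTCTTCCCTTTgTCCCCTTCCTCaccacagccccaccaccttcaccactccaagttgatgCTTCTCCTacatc
RAB30-DT: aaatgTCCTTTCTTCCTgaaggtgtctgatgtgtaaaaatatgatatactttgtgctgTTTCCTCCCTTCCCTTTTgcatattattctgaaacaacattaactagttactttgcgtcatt
ENSG00000237311: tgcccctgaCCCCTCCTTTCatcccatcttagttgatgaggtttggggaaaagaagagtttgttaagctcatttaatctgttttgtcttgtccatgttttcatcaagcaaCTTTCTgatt
The window of MAP3K5-AS2 held 89 pyrimidines and 5 such runs, that of RAB30-DT 74 and 2 runs, and that of ENSG00000237311 73 and 2 runs, and none held TTCTCT or CTCTCT. The windows of called genes that are not printed held between 67 (SP2-DT) and 79 (ENSG00000258377) pyrimidines. No window was taken for LINC03021, OTUD6B-AS1 or CCDC26. Each window is the richest of its transcript by choice, and the same window was not taken over the 436 genes. Over the whole main transcript the share of C and T was 44.9% in MAP3K5-AS2, beside a median of 49.5% over the 436 genes.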

How the data were processed

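The authors read nanopore cDNA libraries (SQK-PCS109 and SQK-PBK004 kits), aligned them to hg38 with minimap2, filtered on mapping quality and deposited whole-number counts per annotated transcript made with StringTie. Per the labels DESeq2 was also used. Tool versions, the annotation release and the use of strand are not given in the sources used here. A second deposited table, counts divided by library totals, was not used. Transcript counts were summed per gene by identifier in GENCODE version 44, which held 252562 of 254070 transcripts; the 1508 others (0.0876% to 0.115% of counts) stayed in library totals only.

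Genes were tested on the whole table with edgeR 4.0.16 (TMM, filterByExpr with its minimum count of 10, quasi-likelihood test, group only) and called at an adjusted p (Benjamini-Hochberg over 7597 genes) under 0.05. Single levels were compared by two-sided exact permutation tests. Alternatives were DESeq2 1.42.0, limma-voom 3.58.1, DESeq2 size factors, no filter, a replicate block, leaving out each library, and, chosen after the data were seen, leaving out on-off transcripts. The genes named are the called ones with their coding partners, the 10 of highest mean CPM, the tested genes of the lists, the isoforms of smallest p, PTBP1 and neighbours of the limit. Neighbouring lncRNA genes, transcripts at 0 and genes not tested were named after their values were seen. The genes and lists were chosen with earlier results of these data known. On simulated counts at this depth, 83 of 94 genes changed by a log2 fold of 1 and 84 of 84 changed by 2 were called, with 8 of 7433 unchanged. That run held 7611 genes and gave no separate values for lncRNA genes. It drew every gene with the same spread between replicates and without on-off zeros, which these data do hold. The share of changed lncRNA genes that would be called was not tested. A count of 0 was taken to allow up to 3 counts. This covers the counting error of the 0, but not that of the other group or the error of cDNA amplification. R 4.3.3, Python 3.11.15, numpy 2.4.6 and pandas 2.3.3 were used. Some of the marker genes checked are not reported here.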

Additional observations from a re-analysis of the deposited data

Results flagged for a closer look

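A library that stood far from the other 3 of its group was looked for in 86 groups of values of the named genes and of the share of counts. Dixon's criterion marked 7, and chance marks about 1 in 20 groups. In shPTBP1, XACT was at 52.2 CPM in replicate 2, with the others between 0 and 1.97 CPM, all but a few of its counts on a single transcript. ZNF433-AS1 was at 34.9 CPM in shPTBP1 replicate 3, with the others between 27.5 and 28.5 CPM. SBDSP1 was at 138 CPM in shPTBP1 replicate 4, with the others between 113 and 116 CPM. MIR210HG was at 8.59 CPM in shPTBP1 replicate 2, with the others between 13.3 and 13.8 CPM. In shSCR, ENSG00000237311 was at 10.2 CPM in replicate 2, with the others between 15.4 and 16.0 CPM. PSMB8-AS1 was at 75.1 CPM in shSCR replicate 4, with the others between 91.4 and 94.2 CPM. CRNDE was at 42.7 CPM in shSCR replicate 3, with the others between 32.6 and 33.4 CPM. Without shSCR replicate 2, ENSG00000237311 was still called.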

How the results depend on the processing

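The number of lower lncRNA genes was 2 with DESeq2 size factors, limma-voom and without on-off transcripts, 4 without a filter (LINC02008 among them), 1 with DESeq2 and 1 with the replicate number as a block, and it ranged from 1 to 2 when single libraries were left out. The number of higher genes was 5 with DESeq2, which gave an adjusted p to 92 of the 436 genes, 8 with the replicate block, 17 without on-off transcripts and between 9 and 12 under the others, and it ranged from 3 (without shPTBP1 replicate 3) to 9 when single libraries were left out. The replicate numbers did not pair the samples: correlations of same-numbered libraries lay between -0.0328 and 0.00889. The block ended the calls of ENSG00000289755, CCDC26, ZNF433-AS1 and RAB30-DT (adjusted p between 0.0664 and 0.0860) and added ANXA2R-AS1 and GIHCG. No isoform was called under any alternative. The difference in share ranged from 0.0477 to 0.0821 percentage points when single libraries were left out. Of genes that were not called, the log2 fold change turned sign for NAPSB with DESeq2 (0.00047) and for PVT1 with limma-voom (-0.0051), and when single libraries were left out for ENSG00000227706 (-0.0169 to 0.0634), NAPSB (-0.0516 to 0.0625), TP53TG1 (-0.251 to 0.0871), HOTTIP (-0.393 to 0.106), MIR210HG (-0.122 to 0.294) and PVT1 (-0.170 to 0.303). The depth limits what can be seen: 166 of the 436 genes were not tested, and isoform use was tested in 37 genes.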
